A study of Homo sapiens with 4 samples.

Results

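The genes described here are 50 genes of nucleolar ribosome biogenesis, given as a list of symbols and matched by GENCODE v29 to the 19729 genes in the files. They code for small nucleolar ribonucleoprotein (snoRNP) components, factors of RNA polymerase I transcription, abundant nucleolar proteins, and processing factors of the small and large ribosomal subunits. All 50 genes were found and each was above 0 in at least 1 library. RNA-Seq was done on HT-29 cells, a human microsatellite-stable, BRAF-mutant and APC-mutant colorectal cancer line that carries truncated APC. The cells had been stably transduced with lentiviruses for a short hairpin RNA (shRNA) that is switched on by doxycycline (DOX), directed either against APC (APC shRNA) or against no target (non-silencing, NonS). Both groups received 500 ng/ml DOX for 72 h, and each group had 2 biological duplicates, giving 4 libraries. Transduced cells were used at early passage, and the comparison asks how silencing of the truncated APC changes transcript levels relative to NonS cells.

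Ribosomes are assembled in the nucleolus, where RNA polymerase I transcribes the ribosomal RNA (rRNA) precursor. Box C/D snoRNPs guide ribose methylation and H/ACA snoRNPs guide pseudouridylation of the precursor, while large sets of helicases, nucleases and scaffold proteins cut and fold it into the small and large subunits. Many of these genes are known targets of MYC, a transcription factor that binds the E-box sequence CACGTG together with MAX, and MYC is itself a known target of Wnt signaling in colorectal cells.

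The files give 1 whole number per gene and library on an unstated scale. Values of low genes varied less between duplicates than independent read counts would, at 0.474 times the Poisson variance between the NonS duplicates and 0.345 times between the APC shRNA duplicates, so they were treated as scores. The sum of value times the length of the longest transcript in kb lay between 980841 and 984873 in every library, so the values may already be scaled by gene length, which the sources do not state. A share of the library sum is therefore a share of such values and not of reads. Depth in reads is therefore unknown and no counting error can be given. The libraries summed to between 398338 and 413595. APC itself, the silenced gene, had values of 3 and 0 in NonS replicates 1 and 2 and was listed at 0 in both APC shRNA libraries. These values are too low to check the silencing. The paper reports silencing of APC mRNA and protein in these cells by other assays. Its own comparison of the RNA-Seq duplicates also lists APC as downregulated. Each of the 9 epithelial marker genes was above 0 in at least 1 library. Their summed values were 3801 to 4764 in NonS and 4574 to 4800 in APC shRNA libraries. The largest values were those of KRT18, with 1550 and 1796 in NonS and 2061 and 2083 in APC shRNA libraries. CDH1 went the other way, with 98 and 119 against 74 and 85. KRT8 had 1202 and 1531 against 1534 and 1482, and KRT19 had 539 and 836 against 483 and 640. The groups of KRT8 and of KRT19 overlapped. CDX1 had 2 in both NonS libraries and 0 in both APC shRNA libraries, and CDX2 had 0 in both NonS libraries against 2 and 4. Among 11 fibroblast, leukocyte and endothelial markers, 9 were at 0 in every library, and their summed values were 5 to 7 in NonS and 3 in both APC shRNA libraries.

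Promoter sequences are shown for the snoRNP genes that have a single RefSeq promoter, because they display the presence or absence of an E-box at the start of genes with the same role. The window runs from 100 bases before to 30 bases after the transcription start, 5′ to 3′ on the strand of the gene (RefSeq, GRCh38.p14), and capitals mark the E-box. This window and choice of genes were made after the values were seen. NOP56 lies at chr20:2652532-2652661 on the plus strand, FBL at chr19:39846350-39846479 on the minus strand, DKC1 at chrX:154762764-154762893 on the plus strand, NHP2 at chr5:178153856-178153985 on the minus strand and NOP10 at chr15:34343107-34343236 on the minus strand.
NOP56: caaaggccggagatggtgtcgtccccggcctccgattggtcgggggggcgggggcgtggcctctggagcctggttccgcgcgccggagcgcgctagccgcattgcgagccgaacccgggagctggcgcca
FBL: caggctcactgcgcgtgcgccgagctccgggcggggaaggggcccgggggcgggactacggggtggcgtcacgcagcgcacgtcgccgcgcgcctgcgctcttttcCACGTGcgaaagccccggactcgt
DKC1: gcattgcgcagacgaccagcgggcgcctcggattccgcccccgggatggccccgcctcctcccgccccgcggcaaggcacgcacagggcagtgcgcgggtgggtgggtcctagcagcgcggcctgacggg
NHP2: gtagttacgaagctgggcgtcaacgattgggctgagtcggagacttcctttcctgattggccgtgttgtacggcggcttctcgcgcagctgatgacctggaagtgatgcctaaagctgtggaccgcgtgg
NOP10: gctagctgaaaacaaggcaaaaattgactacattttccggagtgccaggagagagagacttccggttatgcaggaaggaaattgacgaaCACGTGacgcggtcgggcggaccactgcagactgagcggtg
FBL, the rRNA methyltransferase, has its E-box beginning at position 7, where the start is the first base. NOP10, a small H/ACA protein, has one 11 bases before the start (position -11) and another, outside the printed window, at position -170. The letters CACGTG do not occur in the printed windows of NOP56, DKC1 and NHP2, which says only that these letters are not there.

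E-boxes were common at the start of the ribosome biogenesis genes. A RefSeq promoter, running from 250 bases before to 50 bases after the start, was found for 42 of the 50 genes, and 20 of these 42 (47.6%) held CACGTG, which reads the same on both strands. The share was 8.77% of the 27305 genes in the promoter table and 14.3% of 4289 genes that passed the filter of the expression test. Among 101 further ribosome biogenesis genes with a promoter the share was 24.8%. The 20 genes were DDX21, EBNA1BP2, FBL, GAR1, GNL3, IMP4, LYAR, MRTO4, MYBBP1A, NAT10, NOC3L, NOP10, NOP14, NOP2, PES1, RRP9, UTP18, UTP20, UTP4 and WDR43. Of the 24 matches in their promoters, 19 (79.2%) began within 50 bases of the start. This held for 36.9% of the matches in all promoters and 39.9% of those in genes that passed the filter. In the further ribosome biogenesis genes it held for 67.9% of the matches. A TCF/LEF motif, CTTTGAT on either strand, was found only in POLR1A among the 42 genes (2.38%), at position -117. The share was 3.18% of all genes in the table, 1.8% of genes that passed the filter and 1.98% of the further genes. These motif shares are descriptions, and no binding was measured here. The comparison with genes that passed the filter and the count near the start were added after the values were seen.

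Transcripts of these genes mostly had lower values after APC silencing, but few single genes passed the test. The summed value of the 50 genes was 3129 and 2691 in NonS replicates 1 and 2 and 2446 and 2032 in APC shRNA replicates 1 and 2, which is 0.786% and 0.655% against 0.591% and 0.492% of the library sums. Both APC shRNA libraries were below both NonS libraries. In this cell line, fewer cells with a transcript and less of it per cell cannot be told apart. Genes whose value averaged at least 10 were compared on the log2(value + 1) scale with limma, and 45 of the 50 genes were among the 5376 genes tested. Their median difference, APC shRNA minus NonS, was -0.32 (range -1.37 to 0.19), while the median of all genes tested was 0.03. The difference was negative for 38 of the 45 genes (84.4%), against 47.1% of all genes tested. The genes were chosen with earlier results of these data known, so this shift of the list was not tested.

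At an adjusted p under 0.05, 2 of the 45 genes were called lower, RRS1 and NOP56, and 0 were called higher. The background of lower calls among all genes tested was 3.7% and that of higher calls 4.33%, so the share of lower calls was near the background in this fit, which has no replicate block. The call of NOP56 was lost when genes with a mean of at least 8 were tested (adjusted p = 0.0508). With 1 library left out, 0 of all 5376 genes were called, so calls could not be checked in this way, but the differences could: they ranged from -0.85 to -0.77 for RRS1 and from -0.73 to -0.59 for NOP56. An unadjusted p under 0.05 was reached by 11 genes in the lower direction, where the background was 15.8%, and by 0 in the higher direction, where it was 19.8%. For 26 of the 45 genes both APC shRNA values lay below both NonS values, against 27.5% of all genes tested. The opposite order was seen for 1 gene, PES1, against 33.0% of all genes tested. For 1 gene alone, the smallest p that an exact two-sided permutation test allows with 2 libraries a group is 0.333. The adjusted p-values below are from limma.

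**Figure D1:**
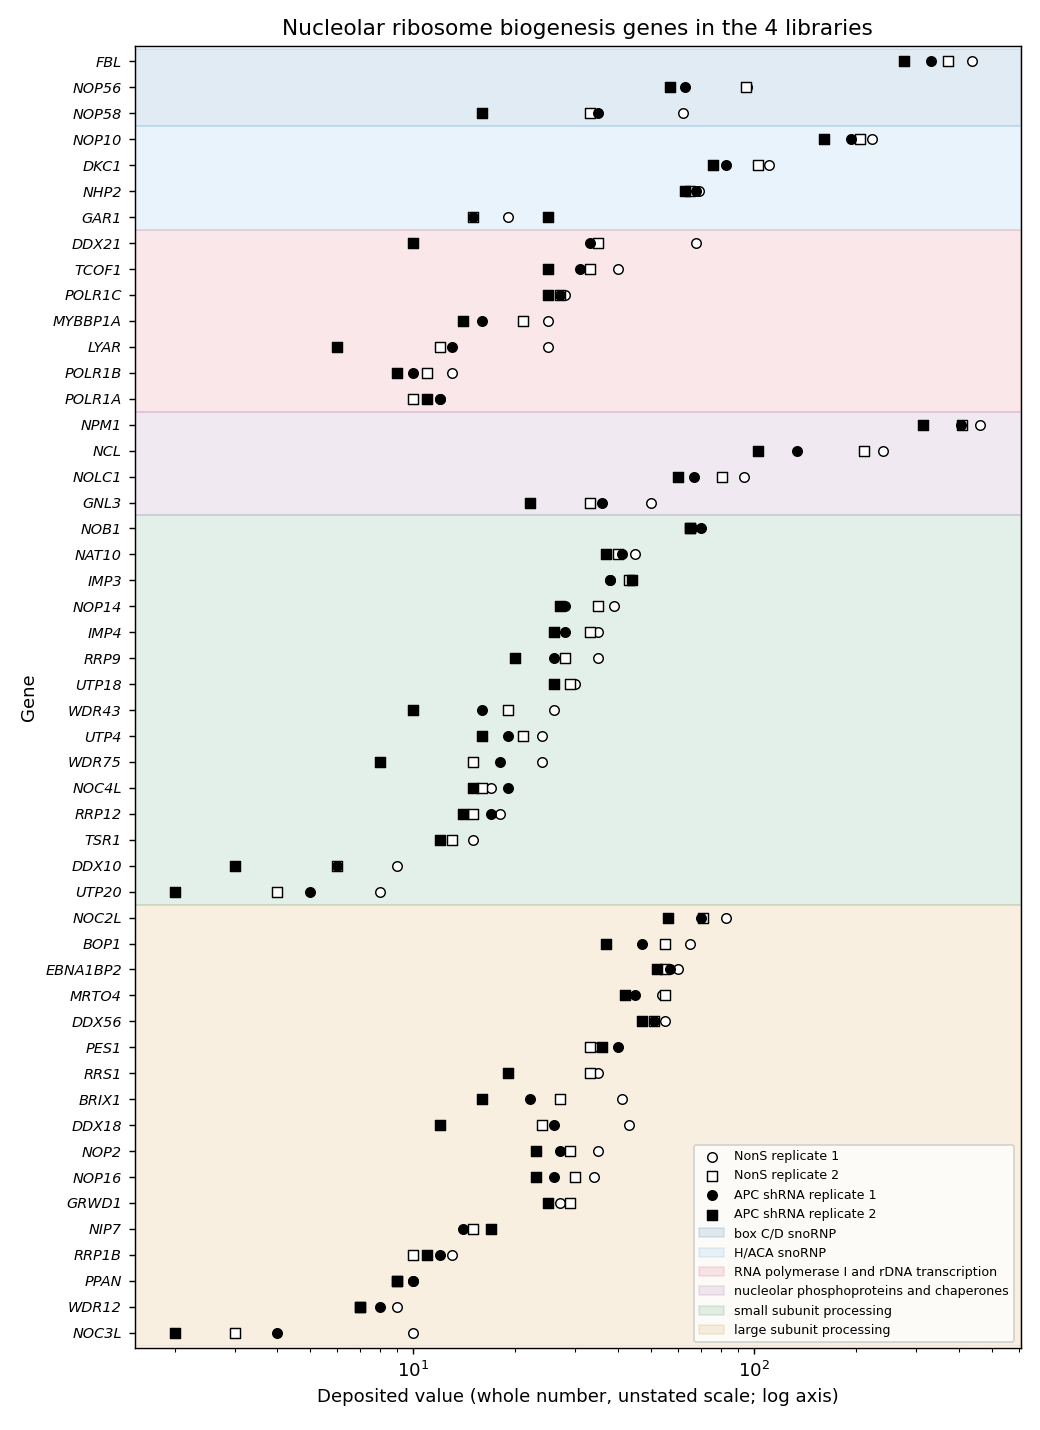
Deposited value of each of the 50 genes on a log axis, with open symbols for NonS and filled symbols for APC shRNA, circles for replicate 1 and squares for replicate 2, and background colour for the role. The filled symbols lie left of both open symbols for 26 of the 45 genes tested, and the filled square is the lowest point of many rows.

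All 3 box C/D snoRNP genes had a negative difference, with a median of -0.66, and 1 passed the test. NOP56, a core scaffold protein of the box C/D particle (ENSG00000101361, chr20:2652145-2658393), had values of 96 and 95 in NonS and 63 and 57 in APC shRNA libraries. NOP56 fell by 0.66 on the log2 scale (SE 0.076, adjusted p = 0.0465), to 62.8% of the NonS mean. The duplicates of NOP56 lay close together and the groups were well apart. Its annotated exons also cover several snoRNA genes on the same strand, including SNORD56 and SNORD57, whose transcripts were not separated here. NOP58, the partner of NOP56 in the particle, had values of 62 and 33 in NonS and 35 and 16 in APC shRNA libraries. The groups of NOP58 overlapped, and its difference of -0.90 had an SE of 0.56 and an adjusted p of 0.332. FBL had values of 437 and 373 against 331 and 276. FBL did not overlap between groups, with a difference of -0.42 and an adjusted p of 0.164.

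H/ACA snoRNP genes varied among themselves, with a median difference of -0.15 over 4 genes, none of which passed the test. DKC1, the pseudouridine synthase dyskerin, had values of 111 and 103 in NonS and 83 and 76 in APC shRNA libraries. Its groups did not overlap, and the difference was -0.42 (SE 0.083, adjusted p = 0.0747). NOP10 had values of 222 and 205 against 193 and 161, with a difference of -0.27 and an adjusted p of 0.224. NHP2, which binds the guide RNA, stayed close between groups with 69 and 65 against 68 and 63. GAR1 had values of 19 and 15 against 15 and 25, so that 1 APC shRNA value equalled the lower NonS value and the other lay above both. GAR1 had the highest difference of the 45 genes, 0.19, with an adjusted p of 0.684.

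Among 7 genes of RNA polymerase I and rDNA transcription, 6 had a negative difference, with a median of -0.37, and none passed the test. DDX21, a nucleolar RNA helicase (ENSG00000165732, chr10:68956128-68985073), had values of 68 and 35 in NonS and 33 and 10 in APC shRNA libraries. This was the largest difference of the 45 genes, -1.37, but its duplicates spread widely (SE 0.75, adjusted p = 0.286). Without APC shRNA replicate 2 it was -0.55, smaller in size than those of RRS1 and NCL, and without APC shRNA replicate 1 it was -2.18. LYAR, a nucleolar growth regulator, had values of 25 and 12 against 13 and 6, and its groups overlapped (difference -0.89, adjusted p = 0.339). MYBBP1A, a nucleolar MYB-binding protein, had values of 25 and 21 against 16 and 14. Its difference was -0.58 (SE 0.13, adjusted p = 0.0865), with no overlap between groups. TCOF1, the rDNA transcription factor treacle, had values of 40 and 33 against 31 and 25 (difference -0.37, adjusted p = 0.223). The polymerase subunits differed less. POLR1A, the largest catalytic subunit, had values of 12 and 10 against 12 and 11. POLR1B had 13 and 11 against 10 and 9, and POLR1C, which is shared with RNA polymerase III, had 28 and 27 against 27 and 25.

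Each of the 4 nucleolar phosphoprotein and chaperone genes had a negative difference, with a median of -0.48. NCL, which codes for nucleolin (ENSG00000115053, chr2:231453531-231483641), had values of 240 and 211 in NonS and 134 and 103 in APC shRNA libraries. The APC shRNA mean was 52.5% of the NonS mean, and the difference was -0.93 (SE 0.18, adjusted p = 0.0711). Without a block, NCL passed the threshold when the values were scaled by size factors, corrected for GC content or gene length, or moderated robustly (adjusted p from 0.0323 to 0.0492), but not with other filters or pseudocounts or with a library left out. NPM1, the chaperone nucleophosmin, had values of 463 and 410 against 407 and 314, with a difference of -0.28 and an adjusted p of 0.325. NOLC1, which binds snoRNPs, had values of 94 and 81 against 67 and 60 (difference -0.45, adjusted p = 0.103). GNL3, the GTPase nucleostemin, had values of 50 and 33 against 36 and 22. The groups of GNL3 overlapped, with a difference of -0.51 and an adjusted p of 0.377.

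Small subunit processing was covered by 15 genes, of which 13 were tested and 0 passed the test. Their median difference was -0.20, and 10 of the 13 were negative. WDR43, a component of the complex that binds the nascent precursor, had values of 26 and 19 in NonS and 16 and 10 in APC shRNA libraries (difference -0.76, SE 0.31, adjusted p = 0.195). WDR75, of the same complex, had 24 and 15 against 18 and 8 (difference -0.61, adjusted p = 0.437), with overlap between groups. NOP14, an assembly factor of the early small subunit, had 39 and 35 against 28 and 27 (difference -0.41, adjusted p = 0.073). RRP9, a component of the snoRNP that directs the first cuts, had 35 and 28 against 26 and 20 (difference -0.44, adjusted p = 0.219). Other genes of this role stayed close. NOB1, the nuclease that makes the mature end of the small subunit rRNA, had 66 and 65 against 70 and 65. IMP3 had 38 and 43 against 38 and 44, whereas IMP4, found in the same subcomplex, had 35 and 33 against 28 and 26 (difference -0.32, adjusted p = 0.0854). The other members of this role, UTP4, UTP18, NOC4L, NAT10, RRP12 and TSR1, had differences between -0.35 (UTP4) and 0.03 (NOC4L).

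Large subunit processing was covered by 17 genes, of which 14 were tested, with a median difference of -0.30 and 12 negative. RRS1, needed for incorporation of the large subunit's smallest rRNA (ENSG00000179041, chr8:66429028-66430733), had values of 35 and 33 in NonS and 19 in both APC shRNA libraries. RRS1 fell by 0.81 on the log2 scale (SE 0.057, adjusted p = 0.0423), to 55.9% of the NonS mean. Its annotated exon shares 194 bases with AC009879.2 on the same strand, a gene that has no values here. How reads of the shared stretch were counted is not stated. BRIX1, which acts beside RRS1, had 41 and 27 against 22 and 16 (difference -0.79, SE 0.29, adjusted p = 0.175). DDX18, an RNA helicase, had 43 and 24 against 26 and 12, with overlap between groups (difference -0.82, SE 0.53, adjusted p = 0.348). BOP1 and PES1 form 1 complex with WDR12, and their values differed in direction. BOP1 had 65 and 55 against 47 and 37 (difference -0.51, adjusted p = 0.149), and PES1 had 35 and 33 against 40 and 36 (difference 0.15, adjusted p = 0.275). Neither passed the test. MRTO4, an assembly factor of the ribosomal stalk, had 54 and 55 against 45 and 42 (difference -0.32, adjusted p = 0.0762). The other 8 genes tested had differences between -0.37 (NOP16) and 0.01 (RRP1B). NOP2, an rRNA methyltransferase with a difference of -0.34, shares 2550 exonic bases with AC006064.6 on the same strand.

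**Figure D2:**
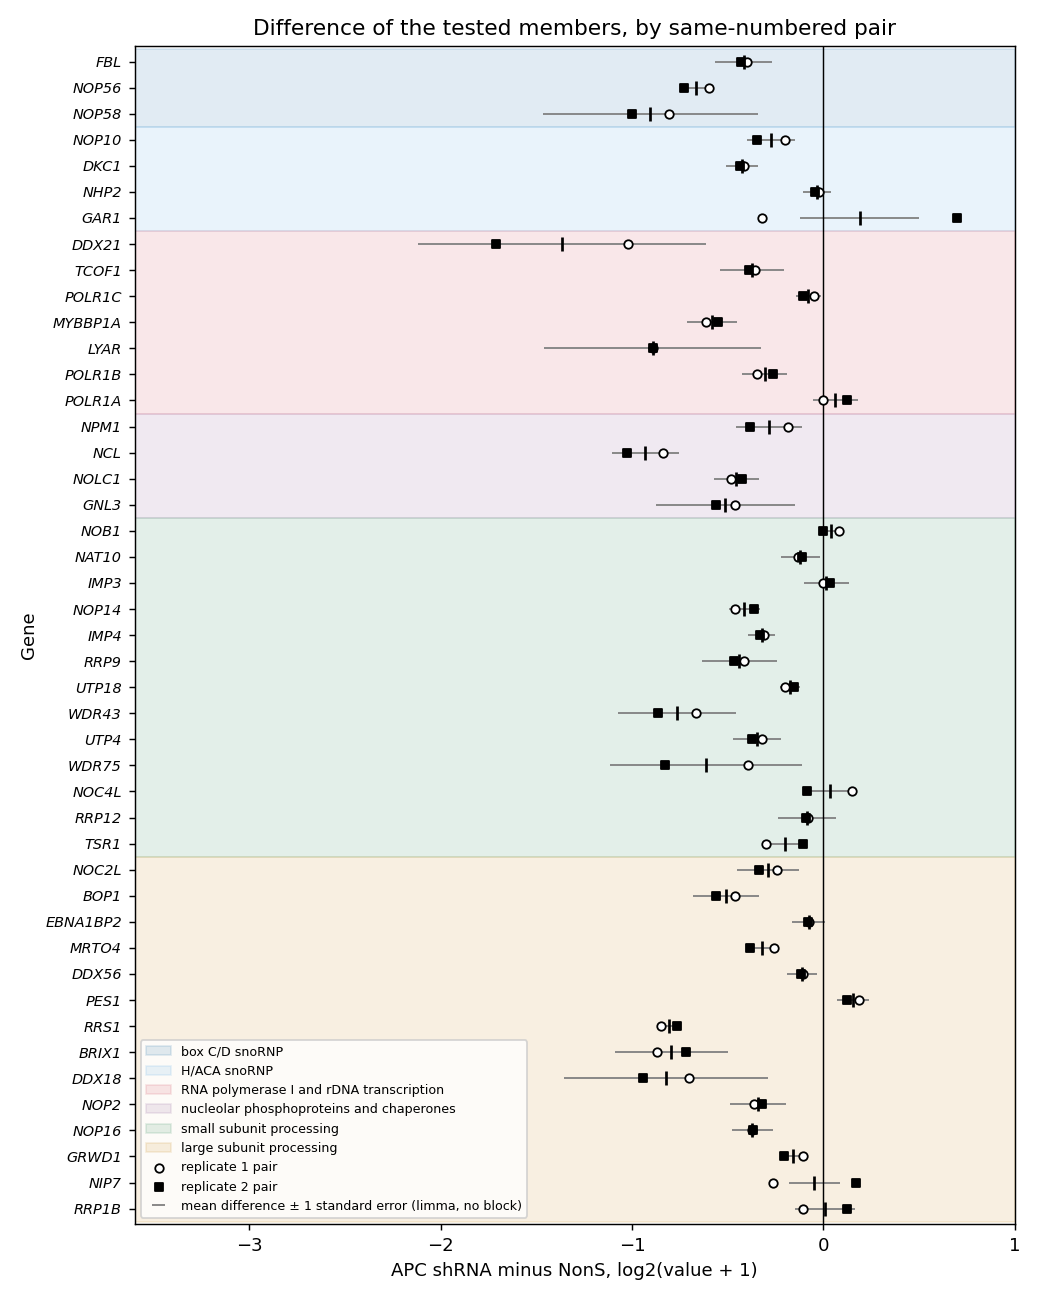
Difference between APC shRNA and NonS on the log2(value + 1) scale for the 45 genes tested, grouped by role. Ticks and lines give the mean difference ± 1 SE from limma, open circles the difference of the replicate 1 libraries and filled squares that of the replicate 2 libraries. Most ticks lie left of 0, and the widest lines belong to DDX21, LYAR, NOP58 and DDX18.

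The 5 genes below the filter were PPAN, NOC3L, WDR12, DDX10 and UTP20. PPAN, a large subunit factor, had values of 10 and 9 in both groups, and shares 1447 exonic bases with the read-through gene PPAN-P2RY11. WDR12 had 9 and 7 in NonS and 8 and 7 in APC shRNA libraries. NOC3L had 10 and 3 against 4 and 2, DDX10 had 9 and 6 against 6 and 3, and UTP20 had 8 and 4 against 5 and 2. The groups of each of these genes overlapped or touched.

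The spread between duplicates of these genes had a direction. Among the 45 genes tested, replicate 2 was below replicate 1 for 42 genes in NonS and for 38 genes in APC shRNA, and for 37 genes in both. Of all 5376 genes tested, replicate 2 was lower for 2041 in NonS, 1965 in APC shRNA and 1290 in both. The sources do not say whether a replicate number marks a shared batch or day. Genes with the largest gaps between duplicates in both groups were DDX21, LYAR, NOP58, DDX18 and WDR75, and these are also genes with large differences between groups but no call. With 1 library left out, the difference ranged from -1.39 to -0.39 for LYAR, -1.44 to -0.36 for NOP58, -1.35 to -0.30 for DDX18 and -1.15 to -0.07 for WDR75. The APC shRNA library was below the NonS library of the same number in both replicates for 37 of the 45 genes, against 36.9% of all genes tested. Median differences were -0.32 for the replicate 1 libraries and -0.36 for the replicate 2 libraries. Leaving out a library, as above, breaks such a pair. The differences within pairs 1 and 2 were -1.02 and -1.71 for DDX21, -0.89 and -0.89 for LYAR and -0.81 and -1 for NOP58. They were -0.70 and -0.94 for DDX18, -0.40 and -0.83 for WDR75 and -0.46 and -0.56 for GNL3.

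**Figure D3:**
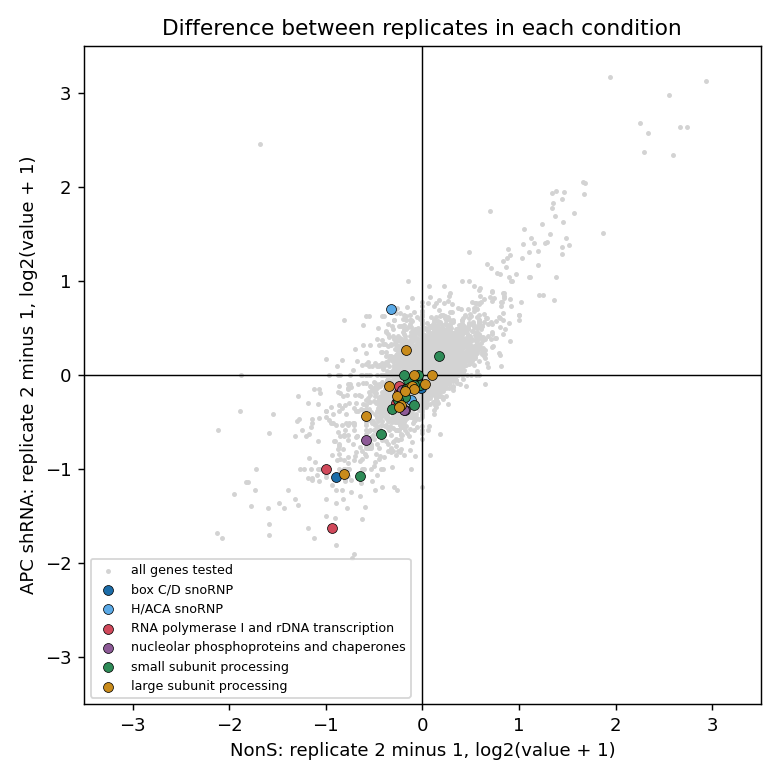
Difference between replicate 2 and replicate 1 in NonS (horizontal) and APC shRNA libraries (vertical), on the log2(value + 1) scale, for all genes tested (grey) and the ribosome biogenesis genes (coloured by role). Of the 45 coloured points, 37 lie in the lower left quadrant, where replicate 2 is below replicate 1 in both groups.

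The difference moved with the GC content of the transcript. The 10 genes tested with a GC content under 45%, which include DDX21, NOP58, LYAR, DDX18, BRIX1 and WDR43, had a median difference of -0.78. The median was -0.27 for the 21 genes between 45% and 55% and -0.22 for the 14 genes over 55%. All genes tested had medians of -0.17, 0.05 and 0.10 in the same bins. After a GC content trend was removed from each library, the medians of the ribosome biogenesis genes were -0.53, -0.27 and -0.32. The correction moved BRIX1 from -0.79 to -0.51, WDR75 from -0.61 to -0.32, GNL3 from -0.51 to -0.32 and NPM1 from -0.28 to -0.14, and PES1, with a high GC content, from 0.15 to 0.06. Across the 45 genes, which share the same 4 libraries, Pearson's r between GC content and difference was 0.46 (Spearman's rho 0.40), and r was 0.15 after the correction. The bins were chosen after the values were seen, and the part of GC content in the result was not tested beyond this correction.

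**Figure D4:**
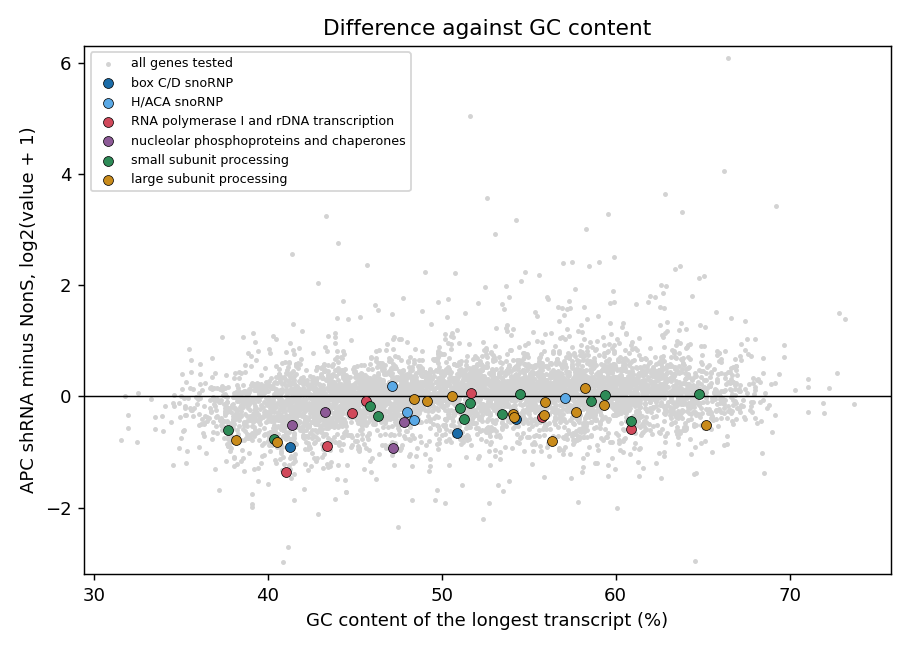
Difference between APC shRNA and NonS on the log2(value + 1) scale against the GC content of the longest transcript, in percent, for all genes tested (grey) and the ribosome biogenesis genes (coloured by role). The coloured points lie mostly below 0 at every GC content and reach lowest under 45%.

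Presence of an E-box did not separate the genes clearly. The 18 genes tested with an E-box had a median difference of -0.34 with 16 negative, and the 19 without had a median of -0.20 with 15 negative. The ranges, -1.37 to 0.19 and -0.93 to 0.06, overlapped widely, and this split was made after the values were seen and was not tested. MYC had values of 114 and 89 in NonS and 85 and 65 in APC shRNA libraries, with no overlap between groups (difference -0.43, SE 0.21, adjusted p = 0.246). MYCL, a paralog, had 3 and 2 against 10 and 12 and was below the filter. MXD4, an antagonist that competes with MYC for MAX, had 14 and 15 against 25 and 26, and rose by 0.77 on the log2 scale (adjusted p = 0.0423). MXD3, of the same family, had 26 and 25 against 20 and 19, a difference in the other direction (-0.37, adjusted p = 0.0606). MLX, a related partner protein, had 34 and 37 against 27 in both APC shRNA libraries (difference -0.38, adjusted p = 0.0673), and MXI1 had 10 in both NonS libraries against 11 and 16. MAX, with 8 and 7 against 9 and 11, was below the filter, as were MXD1, MNT and MGA. MYCN was listed at 0 in every library. The part of these factors in the values of the ribosome biogenesis genes was not tested.

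A wider list of other ribosome biogenesis genes lay nearer to all genes. Of 122 symbols 121 were matched and 82 tested, with a median difference of -0.11. The difference was negative for 54 (65.9%), against 47.1% of all genes tested. Both lists were chosen with earlier results of these data known, so the gap between them was not tested. In limma 1 of them was called higher and 0 lower, against 4.33% and 3.7% of all genes tested. An unadjusted p under 0.05 was reached by 8 of the 82 in each direction. The background was 19.8% in the higher and 15.8% in the lower direction. The gene called was LSG1, a GTPase of late large subunit maturation, with 25 and 24 in NonS and 34 and 33 in APC shRNA libraries (difference 0.44, adjusted p = 0.0487). CEBPZ, a large subunit factor, had 31 and 8 against 10 and 4. Its duplicates spread widely and its groups overlapped (difference -1.19, adjusted p = 0.382). The largest positive difference, named after its value was seen, was that of NOP53, a large subunit factor, with 230 and 264 against 388 and 390 and no overlap between groups (difference 0.66, adjusted p = 0.0556). By role, the median was -0.30 for 10 nuclear RNA exosome genes, -0.15 for 5 snoRNP assembly genes, -0.15 for 32 large subunit genes, -0.02 for 28 small subunit genes and 0.03 for 7 RNA polymerase I genes.

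Genes for the ribosomal proteins themselves had another median. The 86 cytosolic ribosomal protein genes tested had a median difference of 0.12 with 17 negative, and their summed value was 56004 and 56140 in NonS and 63468 and 58501 in APC shRNA libraries. Of these, 0 were called in either direction by limma. An unadjusted p under 0.05 was reached by 12 of the 86 in the higher and 0 in the lower direction. The background among all genes tested was 19.8% in the higher and 15.8% in the lower direction. The 71 mitochondrial ribosomal protein genes tested had a median of -0.08 with 45 negative and 1 called lower, against 3.7% of all genes tested. The differences between these lists were not tested.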

How the data were processed

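Polyadenylated RNA of 4 libraries was sequenced. The authors filtered the reads and trimmed polyA tails, mapped them with TopHat2 to human genome assembly 38, counted them with htseq-count and GENCODE v29 and ran DESeq2, for which the processing notes give version 1.4.1. These notes also name hg19. The strand option of the counting is not given in the sources used here. Per gene and library the authors deposited 1 whole number, treated here as a score of unstated scale, because duplicates varied less than counts would. No count model was run. The authors' comparison table (mean, fold change, adjusted p), from which the paper reports genes called in both directions, was not used. No column of sample values was left out.

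Libraries were grouped by their labels. Genes averaging at least 10 (5376) were tested on log2(value + 1) by limma (version 3.58.1, R 4.3.3) without a block, using trended moderation of the variance, and called at a Benjamini-Hochberg adjusted p under 0.05. Prior degrees of freedom were 1.14, and 132 genes had equal duplicates in both groups, whose zero variances were offset. The script was tested on simulated data. Alternatives covered filters, scaling, pseudocounts, moderation, GC content and length (loess of span 0.5, its degree of 1 set after the data were seen), a replicate block, thresholds and each library left out.

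The genes and lists were chosen with earlier results of these data known. Values in every library are given for genes called, for the largest difference of each role, for differences of at least 0.5 and for genes not tested. Promoters are from RefSeq (GRCh38.p14), and positions, overlaps and GC content from GENCODE v29. Python 3.11.15 and pandas 2.3.3 were used for summaries.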

Additional observations from a re-analysis of the deposited data

How the results depend on the processing

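With 2 libraries a group, unknown depth and values rounded to whole numbers, single genes could hardly be tested, and calls depended on the moderation of the variance. The count of ribosome biogenesis genes called higher was 0 under every alternative run, and the median difference stayed negative under each. The count called lower, 2, became 1 with a mean of at least 8, where the adjusted p of NOP56 was 0.0508. It was 3 with each scaling, GC content, gene length or robust moderation, 8 at an adjusted p under 0.1 and 0 at 0.01. Lower calls among all genes tested moved the same way, from 199 to 140, between 293 and 449, 600 and 0 in that order. They were 3.7% of all genes tested in the main fit and 8.37% with the GC content correction. Leaving out each library in turn gave 0 calls among all genes tested, which says nothing about the genes described here. Their median difference then ran from -0.45 (without APC shRNA replicate 1) to -0.22 (without NonS replicate 1), and that of RRS1 from -0.85 to -0.77 and of NOP56 from -0.73 to -0.59. The median was -0.36 with median-of-ratios scaling, -0.35 with equal totals and -0.29 with a pseudocount of 5.

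Among all genes, 233 were called higher and 199 lower. These counts were 159 and 140 with a mean of at least 8, 139 and 134 with at least 10 in every library, 952 and 515 with a total of at least 1, 343 and 369 with equal totals, 373 and 405 with median-of-ratios factors, 368 and 352 with robust moderation, 344 and 293 with upper quartile scaling, 445 and 449 with GC content correction, 357 and 331 with gene length correction, 731 and 600 at an adjusted p under 0.1 and 0 and 0 at 0.01. Median-of-ratios factors were first computed over all genes above 0, which gave 310 and 305, and were replaced by factors over the genes tested after that result was seen. In the wider list, 1 higher and 0 lower became 0 and 0 with a mean of at least 8, at least 10 in every library or an adjusted p under 0.01. They became 1 and 2 with a total of at least 1, 2 and 0 with robust moderation, gene length or the first median-of-ratios factors, 4 and 2 with GC content correction and 5 and 5 at an adjusted p under 0.1.

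With a replicate block, 17 ribosome biogenesis genes were called lower (background 9.3%), and 26 with the GC content correction as well (background 23.0%). Among them was NCL, with adjusted p-values of 0.0474 and 0.00509. In the same 2 fits MYC was lower, with adjusted p-values of 0.0479 and 0.00646. MXD4 was higher in both, with 0.0468 and 0.00566. MXD3, of the same family as MXD4, was lower in both, with 0.0487 and 0.0108. With the correction alone, MLX was also lower (adjusted p = 0.0130) and MXI1 higher (adjusted p = 0.0405). The wider list then had 1 higher and 9 lower, and 9 and 18 with the correction. All genes had 523 and 500, and 1225 and 1235. With only 2 same-numbered pairs and no source that ties a number to a batch, the pairing is not established by the design. Across 5364 genes the differences between duplicates correlated between the groups (Pearson's r 0.72, and 0.82 over the 45 ribosome biogenesis genes).

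Some genes near 0 changed sign. IMP3 became -0.018 with median-of-ratios scaling, -0.013 with equal totals and -0.083 with GC content correction, with or without the block. RRP1B became -0.023, -0.018 and -0.029 under the same settings and -0.0047 with upper quartile scaling. NOC4L became -0.00069 with median-of-ratios scaling and -0.097 with GC content correction, and NOB1 -0.036 with the latter. With 1 library left out, differences ranged from -0.22 to 0.046 for RRP12, -0.087 to 0.12 for IMP3, -0.087 to 0.022 for NHP2, -0.18 to 0.085 for NIP7, -0.058 to 0.18 for POLR1A, -0.13 to 0.19 for NOC4L, -0.16 to 0.18 for RRP1B, -0.011 to 0.095 for NOB1 and -0.16 to 0.54 for GAR1. The cause was not tested.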
